A study of Larimichthys crocea with 2 samples.

Results

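Retained introns were described in muscle of Larimichthys crocea, the large yellow croaker, a sea fish farmed for food, in 1 library from fish fasted for 21 days and 1 library from fish without treatment, called the control. The authors' lists of splicing events give, for each event, an FPKM (a fragment level scaled by length and library size) of the form that keeps the intron and of the form that splices it out. The members are all events of the 4 intron retention types in either list, which came to 1617 distinct intron positions. The fasted list held 1020 of these positions and the control list 865, among 58624 and 57589 rows of all event types. Retention is the FPKM of the retained form as a percent of the sum of both forms. It was compared between the libraries at identical positions only, of which there were 268. With 1 library per group there is no replicate, so no difference has a test or an error, and every value describes these libraries. The labels give neither the number, strain or age of the fish nor the muscle that was taken, and name no further treatment that the groups share.

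Introns are removed from most transcripts by the spliceosome, a complex of small nuclear ribonucleoproteins and many proteins that recognises the splice sites at both ends. A transcript that keeps an intron may stay in the nucleus, may be spliced later, or may reach the cytoplasm, where a stop codon inside the intron often leads to nonsense-mediated decay. Genes of splicing regulators are known for retained introns that lower their own protein output, and intron retention has been described in mammalian muscle, nerve and blood cells. Short introns, which are common in fish genomes, are recognised mainly as a whole across the intron.

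Reads in listed genes numbered 26593839 in the fasted library and 27519918 in the control library. The event lists give no read counts, so the depth behind a single retention value is unknown. A form listed at 0 FPKM can be a failed estimate, and retention is then 100% or 0% by construction. The libraries also differed in their makeup: 39 fast skeletal muscle marker genes summed to 241450 RPKM (a read level scaled by length and library size) in the fasted library, against 447933 RPKM in the control library. Slow muscle markers summed to 222 against 2254 RPKM in 14 genes, hemoglobins to 44.7 against 568 RPKM in 12 genes, type I collagens to 66.8 against 587 RPKM in 4 genes, fat markers to 14.6 against 176 RPKM in 8 genes and keratins to 434 against 1885 RPKM in 23 genes. Of these 6 marker groups, fast muscle had 7 genes in the fasted library and 6 in the control library listed at 0, slow muscle 2 and 1, hemoglobins 4 and 1, collagens 1 and 0, fat 4 and 4, and keratins 8 and 6. Fewer cells of a type and less RNA per cell cannot be told apart in such samples, and the part of these shifts in any retention value was not tested.

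A listed intron was typically kept in about as much of its transcript as it was spliced out of. Among introns with at least 1 FPKM over both forms, median retention was 51.5% in 773 introns of the fasted library and 52.9% in 604 introns of the control library. The middle of the distribution was wide, with quartiles of 32.8% and 74.2% in the fasted library and 34.2% and 81.0% in the control library. The spliced form was listed at 0 for 135 introns (17.5%) of the fasted library and 120 introns (19.9%) of the control library, and the retained form for 17 and 10. Where both forms were above 0, median retention was 45.2% in 621 introns of the fasted library and 45.8% in 474 introns of the control library. Those introns ran from 9.28% to 89.8% in the fasted library and from 9.59% to 94.6% in the control library, so the lists hold few introns that are kept only slightly. The plot of retention within each library shows this broad hump and the spike at 100%.

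**Figure D1:**
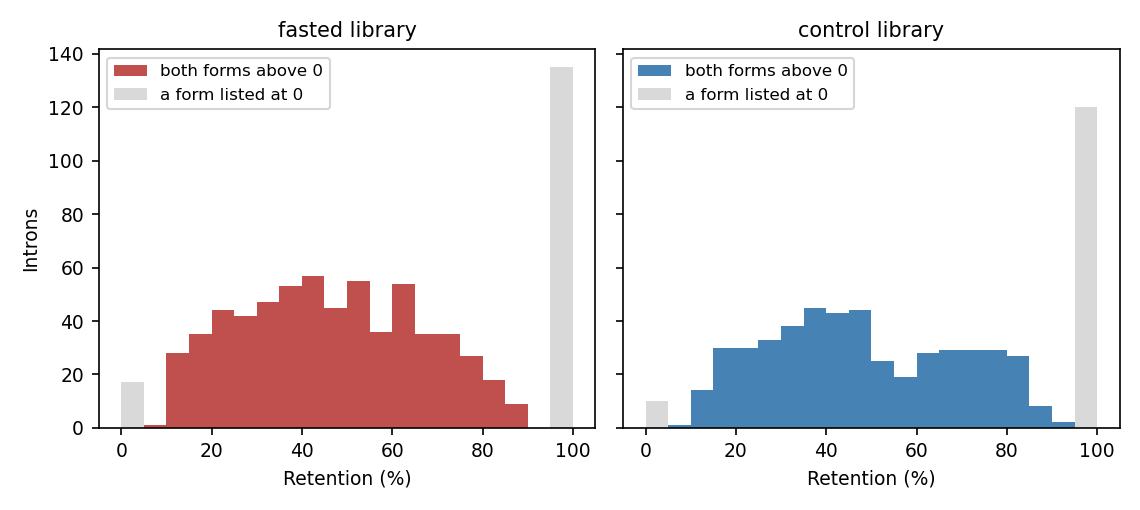
Number of introns (y axis) by retention in percent (x axis, bins of 5 points) in the fasted and the control library, for introns with at least 1 FPKM over both forms. Coloured bars are introns with both forms above 0, with medians of 45.2% and 45.8%, and grey bars are introns with a form listed at 0.

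Most retained introns were short. Single introns had a median length of 87 bases in the fasted list and 86 bases in the control list. Introns of 300 bases or more made up 7.91% and 7.06% of these lists. Introns under 80 bases had median retention of 58.3% in the fasted and 58.9% in the control library. Introns of 80 to 99 bases had lower medians, of 48.5% in the fasted and 48.9% in the control library, and so had introns from 100 to under 300 bases, at 47.2% and 46.6%. Introns of 300 bases or more had a median of 56.7% in 62 introns of the fasted library and 75.1% in 51 introns of the control library, where 18 of the 51 had a spliced form listed at 0. The spliced form was listed at 0 for 23.9% (fasted) and 21.0% (control) of introns under 80 bases. At 80 to 99 bases it was at 0 for 13.5% and 14.9%. With both forms above 0, the classes were closer, with medians of 47.6% (fasted) and 48.4% (control) under 80 bases. They were 44.8% and 43.5% at 80 to 99 bases, 40.6% and 42.2% from 100 to under 300, and 52.2% and 57.4% at 300 or more. More retained introns lay near the 3′ end than near the 5′ end of their genes. The 25% of the gene model at the 3′ end held 40.9% of placed introns in the fasted list and 38.4% in the control list. The 25% at the 5′ end held 13.2% and 14.2%. The positions of all introns were not counted, so whether retained introns differ from other introns in this was not tested. Introns listed in both libraries had a median of 84 bases, and 57.4% of them (151 of 263) had a length that is a multiple of 3, which leaves the reading frame open unless the intron holds a stop codon. That share was 34.7% among introns of the fasted list only and 38.9% among those of the control list only. These shares include introns under 1 FPKM. Among single introns with at least 1 FPKM in both libraries, the share was 48.4% of the 122 within 20 points. It was 50% of the 28 at least 20 points higher in the fasted library and 59.4% of the 32 at least 20 points lower. Single skipped exons had lengths in multiples of 3 in 79.5% of the fasted and 81.2% of the control list. Very short introns, under 60 bases, were also more common among those listed in both (12.2%) than among those of the fasted list only (3.32%) or the control list only (2.79%). No sequence was examined, so whether such short positions are true introns was not tested.

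Retention was compared in the 185 introns that were listed in both libraries with at least 1 FPKM over both forms in each. Retention was at least 20 percentage points higher in the fasted library for 28 introns (15.1%) and at least 20 points lower for 33 introns (17.8%), and the other 124 lay within 20 points. The median difference was 0 points, with quartiles of −12.9 and 10.6 points. Introns past 20 points were thus similar in number in both directions. By any amount, 62 introns were higher, 82 lower and 41 exactly equal. Of the equal ones, 32 were at 100% or 0% in both libraries. The 2 libraries correlated at Pearson r = 0.62 across these introns, which share 2 libraries and often a gene, so the value is only a description. Skipped exons, the most numerous comparable event, passed the same 20 points in 38.5% of 1261 cases, 21.5% toward more inclusion and 17% toward less, against 33% of the introns. Introns and exons together passed in 37.8% of cases, so the share of introns was no larger than that of exons. Where both forms were above 0 in both libraries, 13 of 102 introns were higher and 15 lower, with a median difference of −4.37 points. Of these 102, 42 were higher and 60 lower by any amount, and the libraries correlated across them at only r = 0.43. In the 83 introns with a form listed at 0 in a library, r was 0.46. The value of 0.62 thus includes introns set to 100% or 0% by construction. At 5 FPKM or more in both libraries, 5 of 56 introns were higher and 7 lower, so large differences were less frequent among abundant introns (21.4%).

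**Figure D2:**
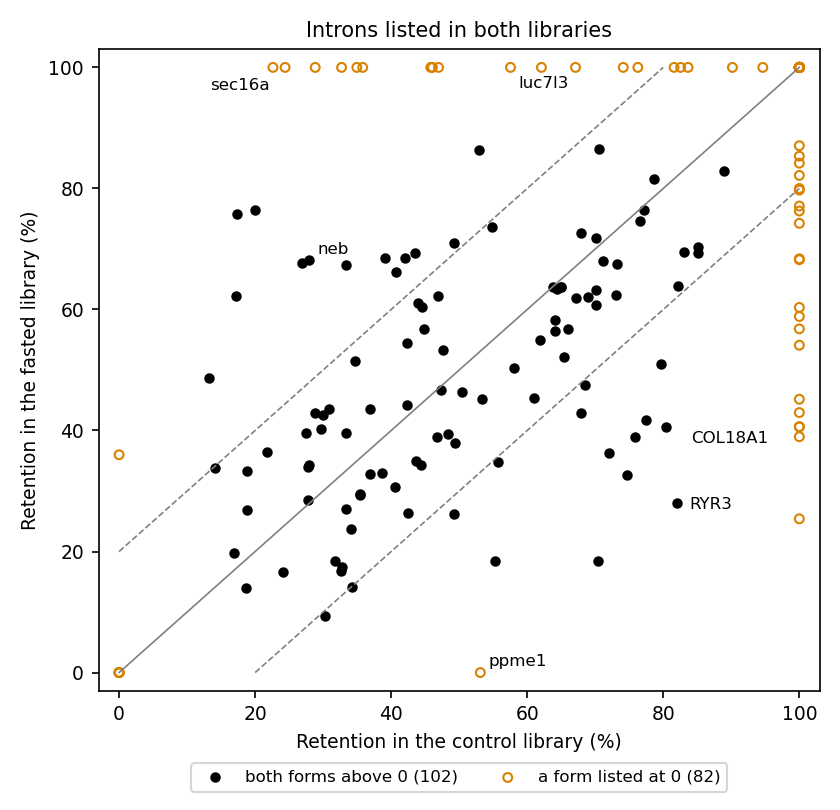
Retention in percent in the fasted library (y axis) against the control library (x axis) for 184 introns listed in both with a host gene, where the solid line marks equal retention and the dashed lines 20 percentage points. Filled points have both forms above 0 and open points a form listed at 0. Open points along the upper edge are introns at 100% in the fasted library, and those along the right edge at 100% in the control library. Introns at 100% in both libraries lie on top of each other in the upper right corner.

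Introns past 20 points are picked by the share of these same forms, which largely sets the direction of each form, so their levels are only a description. Levels of each form were set on a log2 scale with 0.5 FPKM added, after removing the shift of 0.61 (1.53-fold) by which all events at identical positions were higher in the fasted library. Among the 28 introns with higher retention, the spliced form was 2-fold or more lower in 21 and the retained form 2-fold or more higher in 11, with medians of −2.09 and 0.66. In 14 of these 28 the spliced form was listed at 0 in the fasted library. Among the 33 introns with lower retention, the retained form was 2-fold or more lower in 16 and the spliced form 2-fold or more higher in 16, with medians of −0.89 and 0.99. In 17 of these 33 the spliced form was listed at 0 in the control library. Across all introns in both lists, the retained form was 2-fold higher in 24 and lower in 27 of 152 tested, and the spliced form was 2-fold higher in 20 and lower in 19 of 109, where all events at identical positions gave 19.9% higher and 20.7% lower. Which direction had more introns depended on the scaling, since on FPKM as deposited the retained form was 2-fold higher in 38 and lower in 16, and the spliced form higher in 37 and lower in 14.

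Contractile genes held several of the introns with high retained levels in both libraries. Nebulin (neb), the giant ruler protein of the thin filament, had a 98-base intron close to the 3′ end of the gene (scaffold NW_011322493.1, 575193 to 575290, plus strand). Its retained form had 199 FPKM in the fasted library against 89.5 FPKM in the control library, and its spliced form 92.8 FPKM against 231 FPKM. Retention was 68.2% in the fasted library and 27.9% in the control library, a difference of 40.3 points, so the more abundant form changed sides. A neighbouring splice site of the same intron, listed only in the fasted library, gave 61.8% when its spliced form was added. The whole nebulin gene had 291 RPKM in the fasted and 503 RPKM in the control library, so the retained form was higher while the gene was lower.

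Ryanodine receptor 3, a calcium release channel of the sarcoplasmic reticulum, went the other way. Its 70-base intron (NW_011323793.1, 49135 to 49204, plus strand) had a retained form of 49.0 FPKM in the fasted library against 188 FPKM in the control library, and a spliced form of 126 FPKM against 41.2 FPKM. Retention was 28.0% in the fasted library and 82.0% in the control library, 54.0 points lower. The gene had 98.7 RPKM in the fasted and 182 RPKM in the control library. A sodium channel gene annotated as type 4 subunit alpha B, the family of the channel that carries the muscle action potential, had an 86-base intron with 76.5% retention in the fasted and 20% in the control library. Its levels were low, with 1.84 FPKM retained and 0.566 FPKM spliced in the fasted library, against 1.14 and 4.54 FPKM in the control library. A 122-base intron of the same gene, in the control list only, had these control values exchanged, 4.54 FPKM retained and 1.14 FPKM spliced. The control values of both introns are therefore not separate measurements. Of 72 tested genes of calcium handling and ion channels, 7 (9.72%) held a retained intron, and only these 2 introns could be compared.

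Myosin regulatory light chain 2 of fast muscle (mylpf), a subunit of the myosin head, held the compared intron with the highest retained level in both libraries. The 86-base intron (NW_011323073.1, 185732 to 185817, minus strand) had 5021 FPKM retained and 10211 FPKM spliced in the fasted library, against 11488 and 18227 FPKM in the control library. Both forms were lower in the fasted library, and retention stayed close at 33.0% in the fasted and 38.7% in the control library. Titin, the molecular spring of the sarcomere, had a 36-base intron whose spliced form was listed at 0 in both libraries, with 107 FPKM retained in the fasted and 92.0 FPKM in the control library. A 159-base titin intron of the same gene model was kept at 39.6% in the fasted and 27.4% in the control library. It had 42.6 FPKM retained and 64.9 FPKM spliced in the fasted library, against 25.2 and 66.8 FPKM in the control library. In each library these add up to the retained level of the 36-base intron, so that level is not a separate measurement. Titin is split over several gene models on separate scaffolds here, and whether their reads can be told apart was not tested.

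SPEG, the striated muscle preferentially expressed kinase, had 76.3% retention in the fasted library against 100% in the control library, where the spliced form was listed at 0. Its retained form had 25.8 FPKM in the fasted and 31.4 FPKM in the control library. This intron was listed under fewer event types in the control list than in the fasted list. Obscurin, which links the sarcoplasmic reticulum to myofibrils, had 54.1% against 100%, at a retained level of 0.692 FPKM in the fasted library and 2.89 FPKM in the control library. Xin actin-binding repeat-containing protein 2 (xirp2), found at muscle attachment sites, had 69.5% in the fasted and 83.0% in the control library. Myosin light chain kinase family member 4 had 61.1% in the fasted and 44.0% in the control library. SPEG, xirp2 and this kinase are on none of the gene lists. Of the list of sarcomere and Z-disc proteins, 14 of 128 tested genes (10.9%) held a retained intron, 7 introns could be compared, and nebulin alone was called higher and obscurin alone lower. Of the 128 genes themselves, 7 were 2-fold higher and 74 2-fold lower in the fasted library, against 16.1% and 16.6% of all genes. On RPKM as deposited, 12 were higher and 53 lower.

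**Figure D3:**
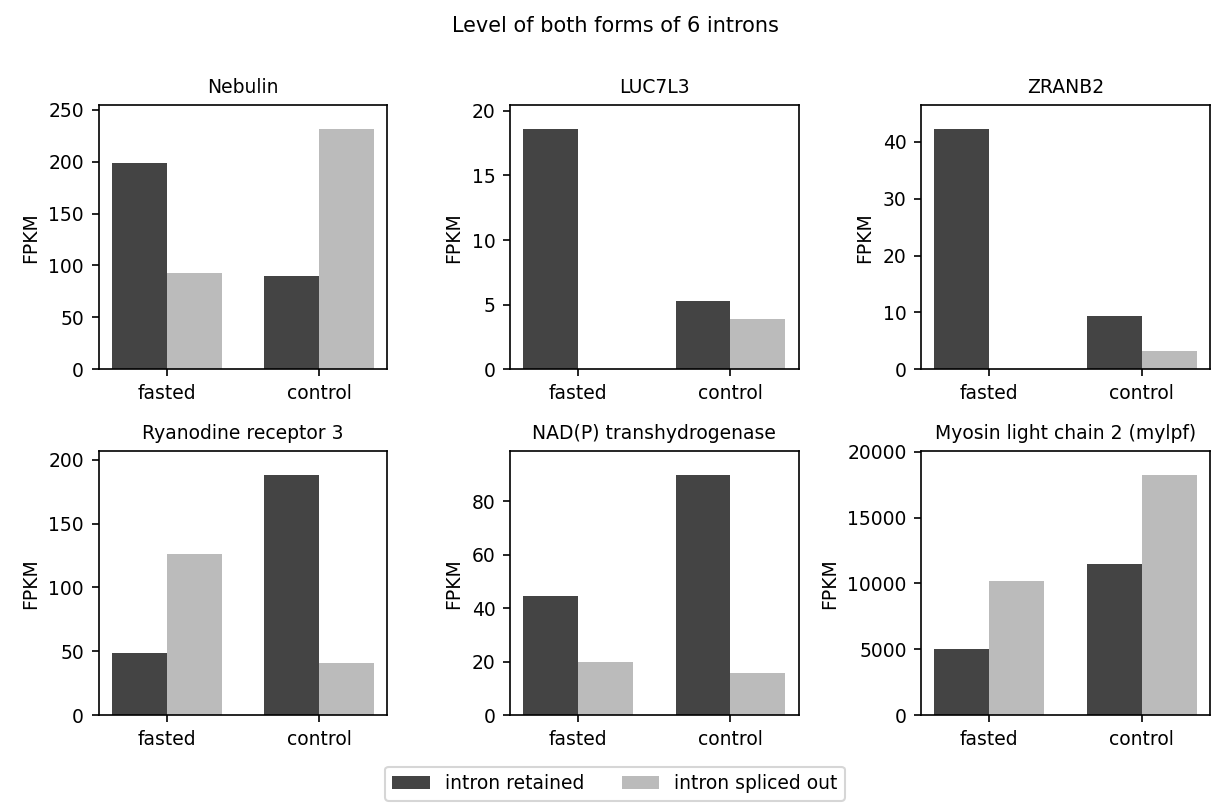
FPKM (y axis, from 0, with its own scale in each panel) of the form that keeps the intron (dark bars) and the form that splices it out (light bars) in the fasted and the control library, for 1 intron each of 6 genes. Nebulin and ryanodine receptor 3 show the more abundant form change sides, and the spliced forms of LUC7L3 and ZRANB2 are listed at 0 in the fasted library.

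Introns of LUC7L3 and ZRANB2, proteins that act in splicing but are on none of the gene lists, were past 20 points. LUC7L3, a protein associated with the U1 small nuclear ribonucleoprotein, had a 69-base intron (NW_011322987.1, 115623 to 115691, plus strand) with 18.6 FPKM retained and 0 FPKM spliced in the fasted library, against 5.28 and 3.90 FPKM in the control library. Its retention was 100% in the fasted and 57.5% in the control library. ZRANB2, a zinc finger protein that binds splice sites, had a 506-base intron (NW_011322479.1, 169748 to 170253, minus strand) with 42.2 FPKM retained and 0 FPKM spliced in the fasted library, against 9.41 and 3.29 FPKM in the control library. Its retention was 100% in the fasted and 74.1% in the control library. In both genes the retained form was higher, along with the gene itself, which had 42.0 RPKM in the fasted and 16.7 RPKM in the control library for LUC7L3 and 51.7 and 13.5 RPKM for ZRANB2. TAR DNA-binding protein 43 (tardbp), a repressor of cryptic exons in mammals, had a 791-base intron that crosses the 3′ end of the gene model. Its retention was 56.7% in the fasted and 44.8% in the control library, within 20 points.

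In the list of splicing factors, 3 introns could be compared, of which 1 was at least 20 points lower and none higher. SNRPA1, the A′ protein of the U2 small nuclear ribonucleoprotein, had a stretch of 664 bases with several introns that was kept at 45.2% in the fasted and 100% in the control library, where the spliced form was listed at 0. The retained form had 5.88 FPKM in the fasted and 4.94 FPKM in the control library, and the spliced form 7.14 FPKM in the fasted library. SLU7, a factor for choice of the 3′ splice site, had 34.3% in the fasted and 27.9% in the control library, within 20 points. SFSWAP, whose fruit fly counterpart represses splicing of its own introns, had a 60-base intron at 100% in both libraries, with 21.2 FPKM retained in the fasted and 3.57 FPKM in the control library and the spliced form listed at 0 in both.

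In the list of splicing factors and heterogeneous nuclear ribonucleoproteins (hnRNPs), 22 of 141 tested genes (15.6%) held a retained intron in either library, against 9.43% of all 11417 genes tested. The fasted library held 26 such introns with at least 1 FPKM in 17 genes, and the control library 9 in 8 genes, while all genes together gave 766 and 597 introns. Among those of the fasted list only were hnRNP A0, C, K, L, M, U and A/B, proteins that coat new transcripts, SF3B1, which recognises the branch point, and tra2b, an activator of exons. Retention was 12.6% for hnRNP C at 0.606 FPKM retained and 16.7% for hnRNP K at 1.23 FPKM. It was 36.1% for A/B at 5.73 FPKM and 39.2% for L at 3.99 FPKM. For M it was 63.3% at 5.11 FPKM, and for U 70.1% at 2.68 FPKM. HNRNPA0 had 56.3% retention of a 51-base intron at 31.8 FPKM retained. A 201-base intron of HNRNPA0 with the same retained level was at 100%, with its spliced form listed at 0. SNRPB, a core protein of the small nuclear ribonucleoproteins, had 34.5% at 30.2 FPKM. Its gene had 119 RPKM in the fasted and 43.3 RPKM in the control library. In the control list only, CLK4, a kinase that phosphorylates splicing factors, kept a 647-base intron at 75.2%. Of the 141 genes, 23 (16.3%) were 2-fold higher and 5 (3.55%) lower in the fasted library relative to the median gene, where all genes gave 16.1% and 16.6%. On RPKM as deposited, 51 were higher and 0 lower, where all genes gave 29.7% and 8.88%. Several hosts of the fasted list only were at or below the median gene, such as hnRNP U at −0.75 and hnRNP L at −0.71 on the centred log2 scale. The part of gene level in the number of introns listed was not tested. Some of the counted introns share values within a gene, such as SF3B1 and CLK2 in the fasted and PTBP3 in the control library. The counts of introns are therefore not counts of separate measurements.

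**Figure D4:**
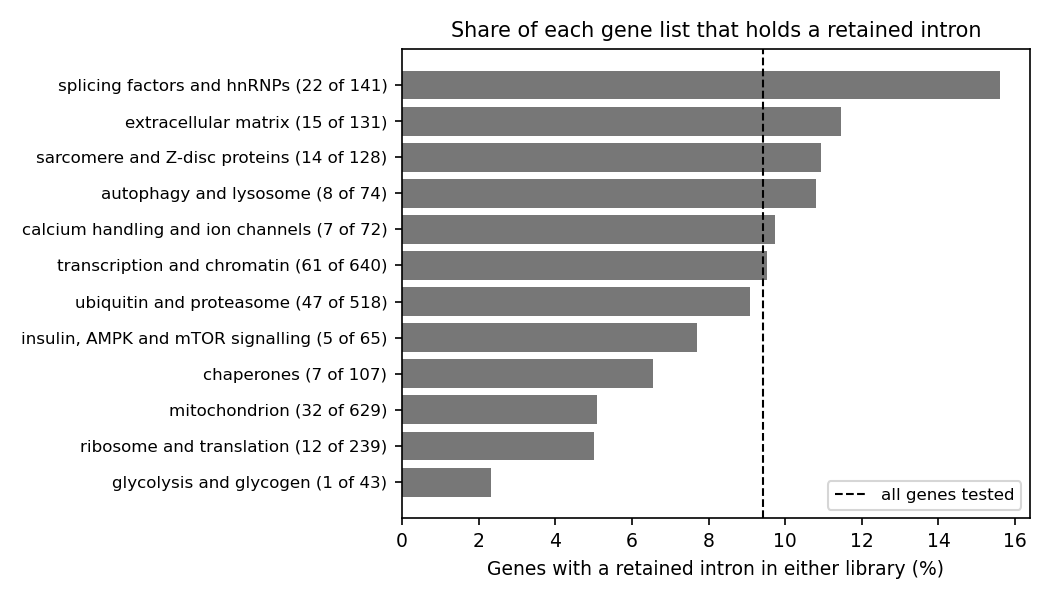
Share in percent (x axis) of the tested genes of each list that held a retained intron in either library, with the counts beside the names. The dashed line is the share among all tested genes, 9.43%, and splicing factors and hnRNPs reach 15.6%.

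Surveillance and other RNA genes, chosen after their values were seen, also held introns past 20 points. SMG6, the endonuclease of nonsense-mediated decay, had 100% in the fasted library, where its spliced form was listed at 0, against 45.8% in the control library. SMG1, the kinase that starts the same decay, had 9.28% in the fasted and 30.2% in the control library, so these partners differed in direction. Matrin-3, an RNA-binding protein of the nuclear matrix, had a 30-base intron with 86.3% in the fasted and 53.0% in the control library. Its levels were low, at 4.73 FPKM retained and 0.751 FPKM spliced in the fasted library, against 1.01 and 0.894 FPKM in the control library. No listed single intron was shorter, and whether this position is a true intron was not tested. A gene annotated as protein kinase dsk1, after the fission yeast kinase of splicing factors, had 48.7% in the fasted and 13.2% in the control library. NOP2, a methyltransferase of ribosomal RNA, had 32.7% in the fasted and 74.7% in the control library while its gene had 33.0 RPKM in the fasted and 6.44 RPKM in the control library.

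The ubiquitin and proteasome system marks proteins for breakdown and degrades them. In that list 47 of 518 tested genes (9.07%) held a retained intron, which is close to the 9.43% of all genes. Of 11 introns that could be compared, 3 were at least 20 points higher and none lower, where all 185 compared introns gave 15.1% and 17.8%. These 3 were in ADRM1, F-box only protein 40 and klhl22. Among the 11, ADRM1, klhl22 and USP47 each entered with overlapping ends of the same intron. Such ends share a retained form, so the 11 are not separate measurements. ADRM1, a ubiquitin receptor of the proteasome, had an intron with alternative ends that differ by 3 bases. At the longer form, of 86 bases (NW_011323494.1, 153765 to 153850, minus strand), retention was 33.8% in the fasted and 14.1% in the control library, 19.7 points higher and just short of a call. At the shorter form, of 83 bases, it was 100% in the fasted library, where that spliced form was listed at 0, and 35.0% in the control library. Both rest on the same retained form, and the call at the shorter form on the 0. With all ends joined, ADRM1 retention was 33.8% in the fasted and 11.1% in the control library. Its retained form had 17.3 FPKM in the fasted and 0.764 FPKM in the control library, and the gene 65.5 and 11.5 RPKM.

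F-box only protein 40, a muscle ubiquitin ligase subunit that in mice targets the insulin receptor substrate, had an 84-base intron with 26.3 FPKM retained and 0 FPKM spliced in the fasted library, against 10.8 and 6.57 FPKM in the control library. Its retention was 100% in the fasted and 62.1% in the control library, where the intron was listed under a different event type. Kelch-like protein 22 (klhl22), an adaptor for a cullin ligase, had 68.4% in the fasted and 39.0% in the control library for a 96-base intron. The control list held it under fewer event types. An alternative form of this intron, of 84 bases, rests on the same retained form. That form was at 100% in both libraries, with its spliced form listed at 0. CYLD, a deubiquitinase, had 58.3% in the fasted and 64.0% in the control library, and FBXO7 62.4% and 73.0%, so these stayed within 20 points. SGTA, a cochaperone that guards newly made membrane proteins and is on none of the lists, had a 39-base intron with 98.5 FPKM retained and 0 FPKM spliced in the fasted library, against 12.3 and 6.05 FPKM in the control library. Retention of this SGTA intron was 100% in the fasted and 67.1% in the control library. Another SGTA intron, of 80 bases, had 62.0% in the fasted and 67.1% in the control library. It had 61.0 FPKM retained and 37.5 FPKM spliced in the fasted library, which add up to the 98.5 FPKM retained of the 39-base intron. The introns thus appear to share forms, and their differences in opposite directions are not separate measurements. Listed in the fasted library only were an intron of MDM2, the ligase for p53, at 50.1%, and an intron of ubiquitin-conjugating enzyme E2 A at 36.2%.

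In the list of ribosome and translation genes, 12 of 239 (5.02%) held a retained intron, against 9.43% of all genes. Of the 239 genes, 149 were 2-fold higher and 2 lower in the fasted library, against 16.1% and 16.6% of all genes, and 202 and 1 on RPKM as deposited. EPRS, the enzyme that charges transfer RNA with glutamate and proline, had 14.8 FPKM retained and 65.7 FPKM spliced in the fasted library, against 3.99 and 8.61 FPKM in the control library. Its retention was 18.4% in the fasted and 31.7% in the control library, with both forms higher. Introns of EEF1B2, the exchange factor of the elongation cycle, and of EIF3B, a scaffold of initiation factor eIF3, were listed only in the fasted library. EEF1B2 had 31.3% retention at 233 FPKM retained, and EIF3B 100% at 225 FPKM with its spliced form listed at 0. Elongation factor 2 had an intron in the control list only, at 19.8%, although its gene had 2923 RPKM in the fasted and 531 RPKM in the control library.

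Metabolic and signalling genes gave single cases. NAD(P) transhydrogenase, which makes NADPH in mitochondria, had a 79-base intron with 69.3% in the fasted and 85.1% in the control library. An alternative end of this intron, listed in the fasted library only, carried a spliced form of 94.7 FPKM, and with it retention was 28.1% in the fasted and 85.1% in the control library. Here the size of the difference depends on which splice sites are counted. Rictor, a subunit of an mTOR complex, had 18.4% in the fasted and 55.2% in the control library, with a retained form of 0.228 FPKM in the fasted and 0.687 FPKM in the control library. Hamartin, which with tuberin restrains mTOR, had 40.3% in the fasted and 29.6% in the control library, while its retained form had 33.6 FPKM in the fasted and 2.79 FPKM in the control library. PPME1, which demethylates a phosphatase, was at 0% in the fasted library, where the retained form was listed at 0, and at 53.1% in the control library. Muscle phosphofructokinase, a glycolytic enzyme, had a pair of introns in the control list only, both at 37.5%, with the same FPKM of each form listed for both.

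In the extracellular matrix list, 15 of 131 genes (11.5%) held a retained intron and 3 introns could be compared. Collagen alpha-1(XVIII), a basement membrane collagen, had a 119-base intron with 2.37 FPKM retained and 3.71 FPKM spliced in the fasted library, against 13.7 and 0 FPKM in the control library. Its retention was 39.0% in the fasted and 100% in the control library, 61.0 points lower. The control list held this intron under fewer event types than the fasted list. The type I collagen markers were lower in the fasted library as given above, and their part in this difference was not tested. Thrombospondin-4-B, a matrix protein of tendon and muscle on no list, had 18.5% in the fasted and 70.3% in the control library.

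Among transcription and chromatin genes, 61 of 640 (9.53%) held a retained intron, and of 13 introns compared 1 was higher and 1 lower. MORC2, a chromatin compactor, had 69.3% in the fasted and 43.5% in the control library. A 145-base intron of the histone methyltransferase KMT2C had 36.2% in the fasted and 72.1% in the control library, at 0.90 FPKM retained and 1.58 FPKM spliced in the fasted library, against 0.949 and 0.368 FPKM in the control library. With a pseudocount of 0.5 FPKM its difference was −22.4 points in place of −35.8 points. Another intron of the same gene was at 63.8% in the fasted and 63.7% in the control library. In the fasted library it had the same values exchanged, 1.58 FPKM retained and 0.90 FPKM spliced. The fasted values of these introns are therefore not separate measurements. An intron of another KMT2C gene model was 14.1 points higher. KMT2C was also among the genes with most retained introns, with 5 positions in the fasted and 6 in the control list. MKL1, a coactivator of serum response factor, is on none of the lists, and its introns were chosen after their values were seen. They differed in opposite directions. The 163-base intron had 100% in the fasted and 46.1% in the control library, and the 90-base intron 25.4% and 100%. At least 1 form was listed at 0 in each of these comparisons. The 163-base intron was also listed under a different event type in each library. The remaining lists held the following numbers of host genes: mitochondrion 32 of 629 genes (5.09%), chaperones 7 of 107 (6.54%), autophagy and lysosome 8 of 74 (10.8%), insulin, AMPK and mTOR signalling 5 of 65 (7.69%), and glycolysis and glycogen 1 of 43 (2.33%). Of these, only the insulin and mTOR list had an intron past 20 points, that of rictor.

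Further introns had at least 5 FPKM in both libraries. The transcription factor c-ets-1-B was kept at 86.5% in the fasted and 70.6% in the control library. The acetylcholine receptor subunit alpha-7, part of a ligand-gated channel, was kept at 42.6% in the fasted and 29.9% in the control library. Both were higher in the fasted library by less than 20 points. Myomegalin, a scaffold of the Golgi and centrosome, was kept at 50.9% in the fasted and 79.6% in the control library, and so passed 20 points. Sorting nexin-21, of a family that sorts membrane cargo, was kept at 80% in the fasted and 100% in the control library. In the control list its spliced form was at 0, and the intron was under fewer event types. The nuclear protein NKAP had 38.9% in the fasted and 46.7% in the control library, the kinase FER 16.7% and 24.1%, and the transporter SLC43A3 63.1% and 70.0%, all within 20 points. FER differed by −7.41 points, but by −23.9 points with the exact event types only and by −20.5 points with the row listed at the top only. Near the 20 points, sorting nexin-21 and SMARCA2 (−20.3) just passed, and the longer form of ADRM1 (19.7) and PRRC2C (18.4) just missed it. The plot of single introns orders these genes by the size and direction of the difference.

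**Figure D5:**
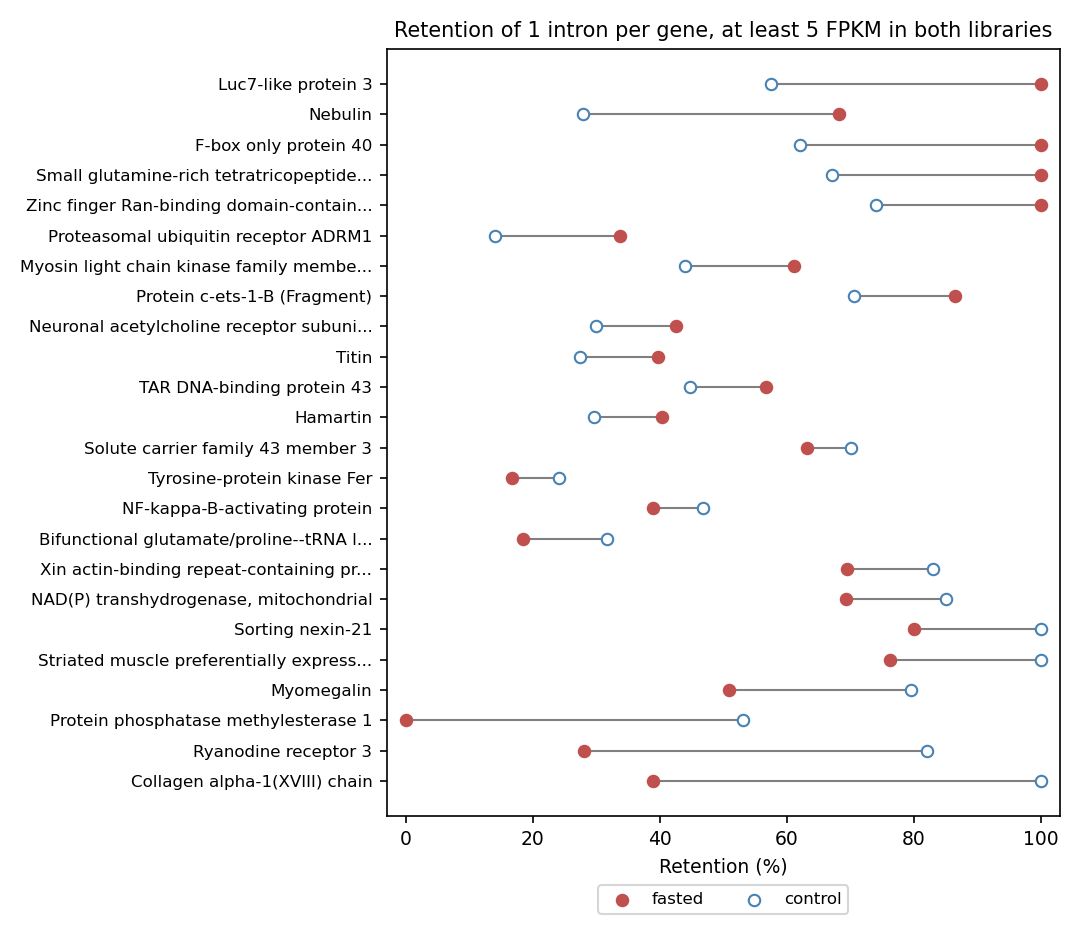
Retention in percent (x axis) of 1 intron per gene (rows) in the fasted library (filled points) and the control library (open points), for the 12 introns with the most positive and the 12 with the most negative differences among those with at least 5 FPKM over both forms in both libraries. LUC7L3 at the top is 42.5 points higher and collagen alpha-1(XVIII) at the bottom 61.0 points lower in the fasted library.

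Outside that level, the most extreme differences came from introns of low abundance, and these were chosen after their values were seen. Sec16A, which organises exit sites of the endoplasmic reticulum, had 100% in the fasted and 22.6% in the control library. Its retained form had 3.91 FPKM in the fasted and 0.532 FPKM in the control library. In the fasted list its spliced form was at 0, and the intron was under fewer event types. POMT2, which starts O-mannose chains on dystroglycan, had 75.7% in the fasted and 17.3% in the control library with both forms above 0. Tensin-1, a protein of focal adhesions, had 56.8% in the fasted and 100% in the control library, and the signalling adaptor TRAF3 43.0% and 100%.

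Most introns were listed in 1 library only: 752 in the fasted and 597 in the control library, so the 268 shared positions were 26.3% of the fasted and 31.0% of the control list. Skipped exons were shared far more often, at 76.9% of 2773 and 77.3% of 2759 positions. The rule by which an event entered a list is not stated, so absence from a list does not show that the intron was not retained. The most abundant intron of the control list only was in a sarcoplasmic reticulum calcium ATPase 1 gene, the pump that returns calcium after contraction, at 56.6% with 4943 FPKM retained. That gene had 24690 RPKM in the fasted and 14248 RPKM in the control library, so its intron was missing from the fasted list despite the higher level. Adenylosuccinate synthetase 1, an enzyme of the purine nucleotide cycle, had 51.1% in the control list only. In the fasted list only, the chaperonin subunit CCT2 had 56.1%, a thioredoxin-interacting protein gene 66.4% and unconventional myosin-XVIIIb 35.4%. Another thioredoxin-interacting protein gene had a stretch with several introns in both lists, at 28.4% in the fasted and 27.8% in the control library. ASB2, a muscle ubiquitin ligase subunit, was in both lists with introns of different ends, 130 bases in the fasted and 179 bases in the control library, at 66.0% and 63.8%. Introns listed in both libraries were kept more, with a median of 63.8% in the fasted and 67.9% in the control library, than introns of a single list, with 48.3% and 48.8%. Their spliced form was listed at 0 in 29.4% and 30.8%, against 13.0% and 14.7% of introns of a single list.

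Host genes passed 2-fold in shares near those of all genes. Of 1077 tested host genes, 160 (14.9%) were 2-fold higher and 150 (13.9%) 2-fold lower in the fasted library, relative to the median gene, where all 11417 tested genes gave 16.1% and 16.6%. All genes were shifted by 0.48 on the log2 scale toward the fasted library before this shift was removed, and on RPKM as deposited 290 host genes were higher and 62 lower. Host genes had a median of 4.51 RPKM in the fasted and 3.18 RPKM in the control library, and all tested genes 5.86 and 4.23 RPKM. Most hosts had 1 listed intron, with 125 of 851 in the fasted and 109 of 721 in the control library holding 2 or more.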

How the data were processed

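Muscle RNA was taken with Trizol and sequenced from TruSeq libraries, per the labels' protocols. Tools named in the submitters' processing notes are HTSeq, SAMtools 0.1.19, TopHat and TopHat2 2.0.12. The event caller, genome build and use of strand were not given in the sources used here, so overlapping genes on opposite strands cannot be told apart, and no sequence is shown. Scaffold positions name the first and last base of the intron, which lie just inside the start and end that the files give. The authors deposited FPKM per event form, RPKM per gene and RPM per gene, per the file headers. Reads were recovered from the deposited RPM, and 100% came out whole within 0.1 read. Event lists were tied to libraries by the sample title, and the log2 ratio of summed event FPKM correlated with that of host RPKM at r = 0.90 over 167 genes.

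An intron is a scaffold, start, end and strand. Distinct forms at that position were summed over event types, and positions were matched whatever the outer exon ends. Introns entered with at least 1 FPKM over both forms, and genes with a mean of 1 RPKM. Calls were made at 20 percentage points, or at 2-fold with a pseudocount of 0.5 after centring on the median, which understates the change of low values. No test was run, because there is 1 library per group. Named introns, in genes with a named protein and listed in both libraries, are the 12 largest differences in each direction at 5 FPKM or more, with 1 intron per gene, the 3 with the highest retained level per library under the same conditions, up to 2 per gene list in each direction past 20 points, and the genes with most introns. Introns outside this rule were chosen after their values were seen. The 12 gene lists are patterns in protein names. Members and lists were chosen with earlier results of these data known. The steps were tested on simulated retention values with Python 3.11.15, pandas 2.3.3 and numpy 2.4.6. Alternatives covered the filter, the size of a call, event types, pseudocount, scaling and overlapping introns.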

Additional observations from a re-analysis of the deposited data

How the results depend on the processing

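No named intron changed the sign of a called difference, but the balance of higher and lower counts turned round for retained forms as deposited and for calls with overlapping introns joined (34 higher, 33 lower). Median retention then was 49.7% in the fasted and 49.5% in the control library. The introns called higher numbered 5 at 5 FPKM or more, 13 with both forms above 0 and 47 at 10 points, against 28, and those called lower 53 without a filter, 7 at 5 FPKM or more, 15 with both forms above 0, 51 at 10 points and 21 at 30 points, against 33. The median difference was −4.37 points with both forms above 0. Median retention was 56.0% in the fasted and 59.3% in the control library without a filter, 47.6% in the fasted library at 5 FPKM or more, and 45.2% and 45.8% with both forms above 0. On FPKM as deposited, retained forms were 2-fold higher in 38 and lower in 16 introns and spliced forms higher in 37. Host genes 2-fold higher were 290 on RPKM as deposited and 302 without a filter, and those lower 62 and 70. Without the filter the shift removed was also only 0.0097, and with that of 0.48 kept, chosen after seeing the data, they were 163 and 179. Exons called higher were 112 with both forms above 0, and those called lower 343 without a filter and 84 with both forms above 0. Among 33 named introns, 4 of 128 values passed 20 points only under an alternative (ADRM1 with joined ends, FER under exact types and the row listed at the top, and NAD(P) transhydrogenase with joined ends), and sorting nexin-21 no longer passed with a pseudocount. No paired analysis was possible because each group has 1 library and no result comes from a test. Both forms of an event rest on the authors' assembly, 88 fasted and 95 control introns overlap another listed intron, and 78 and 72 share both values with another intron of their gene, so listed introns are not independent.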
